A study of Mus musculus with 10 samples.

Results

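The expression of 10 genes that control the making of new mitochondria was examined in the left ventricle of mice. The genes were picked by symbol, with earlier results of these data known. All 10 were found among the 29564 genes of the deposited tables and among the 13298 genes tested. They were the coactivators Ppargc1a and Ppargc1b, the estrogen-related receptors (ERR) Esrra, Esrrb and Esrrg, the nuclear respiratory factors Nrf1 and Gabpa, and Tfam, Polrmt and Tfb2m, whose proteins transcribe mitochondrial DNA (mtDNA).

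These genes act in layers. The PGC-1 coactivators, encoded by Ppargc1a and Ppargc1b, bind no DNA themselves and are recruited by ERR, NRF1 and the GABPA protein to genes of oxidative metabolism, including Tfam and the mitochondrial transcription genes. TFAM packages mtDNA and bends its promoters, TFB2M opens them, and POLRMT is the RNA polymerase that reads them. The heart, which meets most of its demand for ATP by fatty acid oxidation, has much of this program in use.

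RNA was taken from 5 control mice (TT-583 to TT-587) and from 5 mice of the HFD+mTAC group (TT-588 to TT-592). All were wild-type male C57BL/6J mice, as the methods of the study state. HFD+mTAC mice had moderate transverse aortic constriction (mTAC), a narrowing of the aortic arch that raises the pressure load, at 11 weeks of age, and were fed a high-fat diet (HFD) with 60% of kilocalories from fat; controls had no mTAC and ate chow with 10% of kilocalories from fat. After 16 weeks of these regimens came oral dosing of vehicle, once per day at 10 mL/kg for 6 to 9 weeks. The methods of the study have HFD+mTAC mice on the high-fat diet until they were killed. The treatment label of every library describes this dosing for HFD+mTAC mice. The sample titles name vehicle for the HFD+mTAC group alone. If controls were not dosed, vehicle cannot be told apart from the model. With only the combined model and controls analysed here, the effects of diet and of constriction cannot be told apart. The model stands for heart failure with preserved ejection fraction, and the comparison asks which transcripts differ between such hearts and control hearts.

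The 10 libraries held 34.2 to 53.7 M estimated counts each. Totals did not differ beyond their spread (exact permutation test, two-sided, p = 0.444). All 8 cardiomyocyte markers were detected. TPM are counts per effective transcript length, scaled to one total per mouse. The 8 markers summed to 19189 to 24375 TPM in controls and 16830 to 20365 TPM in HFD+mTAC mice. Of 4 adipocyte markers, Ucp1, the marker of brown fat, was at 0 in all mice. The 4 together summed to 2.08 to 5.36 TPM in controls and 2.54 to 4.27 TPM in HFD+mTAC mice. Only Cidea was tested, with a higher estimate in HFD+mTAC mice (log2 fold change 0.39, edgeR unadjusted p under 0.05, not called). The cardiomyocyte markers all had lower estimates in HFD+mTAC mice, with a median log2 fold change of -0.21. By edgeR 0 were called, against 0.0602% of all genes tested. An unadjusted p under 0.05 was found for 2 of the 8, against 8.26% of all genes. The mean log2 CPM of the 8 markers ran from 12.3 to 12.4 in controls and from 12.1 to 12.2 in HFD+mTAC mice, without overlap. The exact permutation test (two-sided) gave p = 0.00794, the smallest that 5 against 5 mice can give, and 0.0635 adjusted over 8 marker sets. The atrial set, with 2 tested markers, ran from 4.55 to 5.45 log2 CPM in controls and from 4.17 to 4.79 in HFD+mTAC mice. Its exact permutation p was 0.0159, and 0.0635 adjusted. For the remaining sets the adjusted exact permutation p ran from 0.741 to 0.944. The part of these markers in the values below was not tested.

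Short stretches of the start regions of Gabpa, Tfam and Polrmt are shown because each holds the ETS-type site to which the GABPA protein binds, so that 3 of the regulators carry the binding letters of another (or, for Gabpa, of its own product). RefSeq windows of GRCm38.p6, from 250 bases before to 50 bases after each annotated start, were found for 9 of the 10 genes and searched on both strands. The capitals mark CCGGAAG or, where the site lies on the other strand, its reverse complement CTTCCGG. Each line is written in the direction of transcription of its gene, at chr16:84835020-84835048 (plus strand), chr10:71238074-71238102 (minus strand) and chr10:79746607-79746635 (minus strand).
Gabpa: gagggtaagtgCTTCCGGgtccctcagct
Tfam: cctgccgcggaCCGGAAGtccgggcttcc
Polrmt: ccctaagagcgCTTCCGGcagtcgcagaa
The 7 letters stood 93 to 87 bases before the RefSeq start in Gabpa, 47 to 41 in Tfam and 43 to 37 in Polrmt. In GENCODE M21 the Tfam site falls in the 5′ untranslated part of a longer annotated transcript, and the Gabpa site falls just after the first exon of one of its transcripts. A match to these letters occurred in the windows of 9.93% of all 27025 genes, so a match describes the window and is not evidence of binding.

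The NRF1 core GCGCATGCG (reverse complement CGCATGCGC) was found in Tfb2m, 12 to 20 bases after the start, and in 1.95% of all genes. The ERR half-site AAGGTCA and the cAMP response element TGACGTCA, which were found in 5.38% and 2.03% of genes, had no match in these windows of the 9 regulators.

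No regulator passed the test for a difference between the groups in counts. With edgeR (quasi-likelihood test, Benjamini-Hochberg adjustment across all tested genes), 0 of 10 were called at an adjusted p under 0.05, against 0.0602% of all genes tested (8 genes, of which 6 were higher). At an unadjusted p under 0.05, 0 of 10 passed, against 8.26% of all genes, and 0 of 10 had groups that did not overlap in CPM, the counts scaled to a common library size, against 1.96%. DESeq2 also called 0 regulators (0.902% of all genes) and found 0 with an unadjusted p under 0.05 (8.86% of all genes). On log2(TPM + 1), limma called 0 (0.00752% of all genes) and found 1 with an unadjusted p under 0.05, Esrra, against 6.61% of all genes. Without control mouse TT-587 and HFD+mTAC mouse TT-591, which lay lowest on the main axis of variation between libraries, edgeR called 0 of the 10 again and 2 of all genes. The estimate was below 0 for 9 regulators and above it for 1, Nrf1. Of all genes tested, 6601 were below 0 and 6697 above. Several regulators varied together between mice, as given below, so their signs are not independent. The median log2 fold change of the regulators was -0.03, beside 0.00 over all genes, and their edgeR adjusted p-values ran from 0.862 to 0.996. In bulk tissue, fewer cells of a type and less RNA per cell cannot be told apart.

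**Figure D1:**
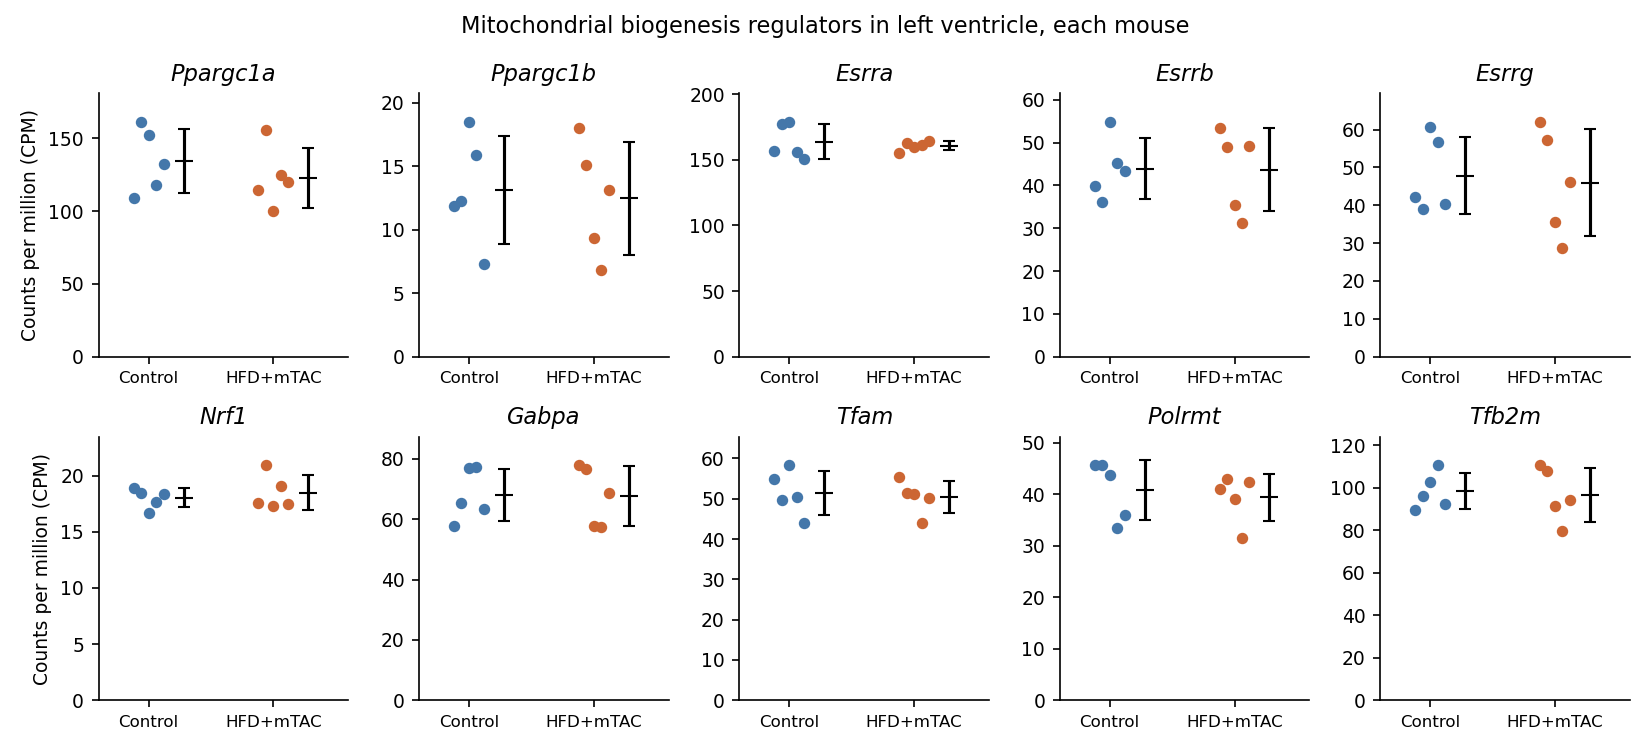
CPM (y axis, from 0) of each regulator in each mouse; points are mice, and the black bars give the mean and SD of 5 mice per group. The groups overlap in all 10 panels, and Ppargc1b and Esrrg spread most widely between mice.

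Ppargc1a (chr5:51454250-51567726, minus strand, GENCODE M21 on GRCm38 as for the loci below), the coactivator that responds to exercise, cold and fasting, was at 109, 161, 152, 118 and 132 CPM in the controls and at 114, 156, 100, 125 and 120 CPM in the HFD+mTAC mice, listed here and below in the order of their numbers. The highest mouse was a control and the lowest an HFD+mTAC mouse, with the other mice mixed between them. The means were 135 ± 22.0 CPM in controls and 123 ± 20.5 CPM in HFD+mTAC mice (SD, n = 5 per group). This is a difference of -0.13 on the log2 scale (SE 0.13, 95% interval -0.42 to 0.16, edgeR adjusted p = 0.862). This was the largest shift of the 10 regulators in size, and its interval holds 0.

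Ppargc1b, its relative with constitutive expression in oxidative tissue, was read at 11.9, 12.2, 18.5, 15.9 and 7.31 CPM in controls and at 18.0, 15.1, 9.38, 6.83 and 13.1 CPM in HFD+mTAC mice. Each group thus held mice with more than double the counts of others, and the log2 fold change of -0.08 had the widest interval of the 10 genes, from -0.67 to 0.52 (SE 0.27, adjusted p = 0.967). Of the summed TPM of the pair, Ppargc1a made up 67.2% ± 10.6 in controls and 66.9% ± 7.26 in HFD+mTAC mice (SD, n = 5 each). That TPM rests on effective lengths of Ppargc1a that exceed its longest annotated transcript; per kilobase of the longest annotated transcript, the share was 85.3% ± 4.26 and 84.9% ± 4.65.

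Among the ERR genes, which encode orphan nuclear receptors that read the half-site named above, Esrra (chr19:6910977-6921813, minus strand) had the narrowest interval. Control mice had 157, 177, 179, 156 and 151 CPM and HFD+mTAC mice had 156, 163, 159, 162 and 164 CPM. All HFD+mTAC values lay within the range of the controls, and the log2 fold change of -0.03 had an interval of -0.19 to 0.13, narrower than those of the other 9 genes (SE 0.07, adjusted p = 0.952). Esrrb (chr12:86361117-86521628, plus strand), best known from pluripotent cells and also expressed in heart, was at 43.9 ± 7.09 CPM in controls and 43.7 ± 9.71 CPM in HFD+mTAC mice, which gave a log2 fold change of -0.01 with an interval of -0.35 to 0.34. Esrrg (chr1:187608791-188214885, plus strand), which drives the switch of the newborn heart to oxidative metabolism, was at 42.3, 39.0, 60.8, 56.7 and 40.4 CPM in controls and 62.1, 57.3, 35.6, 28.8 and 46.0 CPM in HFD+mTAC mice. The highest and the lowest mouse were both HFD+mTAC mice, and the log2 fold change was -0.06 with an interval of -0.50 to 0.39.

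Nrf1 (chr6:30047988-30153458, plus strand) encodes a transcription factor of respiratory chain genes, and Gabpa (chr16:84834925-84863779, plus strand) the DNA-binding subunit of nuclear respiratory factor 2. Nrf1 was at 18.0 ± 0.863 CPM in controls and 18.5 ± 1.55 CPM in HFD+mTAC mice, the smallest spread of the 10 genes in control mice relative to its mean (log2 fold change 0.04, interval -0.17 to 0.24). Gabpa was at 68.1 ± 8.70 and 67.6 ± 9.87 CPM, with a log2 fold change of -0.01 and an interval of -0.26 to 0.24. The first exons of Gabpa overlap those of Atp5j on the opposite strand, and exons of Esrra overlap Trmt112 on the opposite strand; the libraries were stranded, but whether strand was used in counting is not given in the sources used here.

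The 3 genes of mtDNA transcription were as close between groups. Tfam (chr10:71225464-71238280, minus strand) was at 51.5 ± 5.47 CPM in controls and 50.4 ± 4.07 CPM in HFD+mTAC mice, Polrmt (chr10:79736123-79746581, minus strand) at 40.8 ± 5.81 and 39.4 ± 4.63 CPM, and Tfb2m (chr1:179528055-179546267, minus strand) at 98.4 ± 8.42 and 96.8 ± 12.7 CPM (SD, n = 5 each). Their log2 fold changes were -0.03 (interval -0.23 to 0.17), -0.05 (-0.31 to 0.20) and -0.02 (-0.24 to 0.19). On counts, the 95% interval of 4 regulators, Esrra, Nrf1, Tfam and Tfb2m, lay within 0.25 log2 units of 0 on both sides. For the other 6 it reached beyond 0.25 on at least 1 side. The bound for the 4 did not hold with the effective transcript length as an offset, described below. The intervals were then -0.01 to 1.25 for Esrra, -0.80 to 0.09 for Nrf1, -0.27 to 0.49 for Tfam and -0.47 to 0.57 for Tfb2m.

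**Figure D2:**
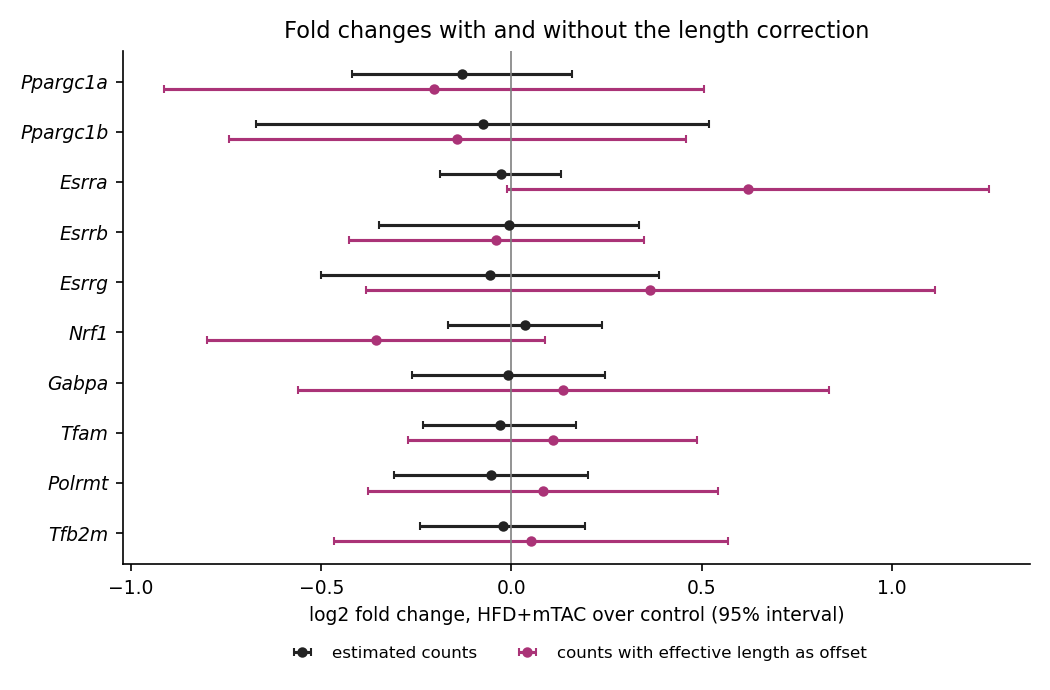
Log2 fold change of each regulator, HFD+mTAC over control (x axis), with 95% intervals, from counts (black) and from counts with the effective transcript length as an offset (magenta). The black estimates lie between -0.13 and 0.04; the magenta ones are wider, and Esrra moves to 0.62.

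Levels can be ranked between genes only per length, so TPM was used for this, and the order depends on which length is used. Esrra was the highest of the 10 at a mean of 128 TPM over 10 mice, at the 93.2 percentile of tested genes. Tfam (57.3 TPM), Gabpa (51.4 TPM), Polrmt (41.1 TPM) and Tfb2m (38.5 TPM) formed a middle group, followed by Ppargc1a (12.3 TPM), Nrf1 (8.40 TPM), Esrrg (6.52 TPM), Ppargc1b (5.76 TPM) and Esrrb (4.38 TPM). Esrra lay above Tfam in 9 of 10 mice, and Tfb2m above Ppargc1a in 10 of 10. Of the neighbours, 3 pairs were in order in only 5 of 10 mice, Gabpa over Polrmt, Polrmt over Tfb2m and Esrrg over Ppargc1b, and so were not separated. Within the ERR family, Esrra made up 89.3% ± 4.82 of the summed TPM in controls and 93.2% ± 1.83 in HFD+mTAC mice (SD, n = 5 each). For 5 of the 10 genes the effective length exceeded the longest annotated transcript in at least 1 mouse. With CPM per kilobase of the longest annotated transcript in its place, Esrra stayed first (72.4), followed by Tfb2m (39.9), Ppargc1a (19.9), Gabpa (13.6), Tfam (12.2), Polrmt (10.7), Esrrb (10.2), Esrrg (8.73), Nrf1 (5.09) and Ppargc1b (3.51). Ppargc1a thus moved from place 6 to 3 and Esrrb from 10 to 7, while the mean share of Esrra in the ERR level was 79.3% in controls and 79.5% in HFD+mTAC mice.

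The TPM values, rescaled over the tested genes, differed from the counts for Esrra. Its TPM was 72.8, 153, 84.3, 143 and 45.1 in controls and 173, 184, 132, 129 and 168 in HFD+mTAC mice. On the log2(TPM + 1) scale the difference was 0.77 (SE 0.30, limma unadjusted p = 0.0268, adjusted p = 0.675), whereas the counts of the same libraries gave -0.03. The deposited TPM equalled counts divided by the deposited effective length, rescaled per mouse, to a relative difference of at most 0.000507, so the gap between both readings lies in that length.

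The effective length, an average over the transcripts of a gene that the quantification corrects for sequence, GC and position bias, was 2240, 1133, 2256, 1097 and 3355 bases for Esrra in controls and 1010, 945, 1204, 1339 and 1042 bases in HFD+mTAC mice. The controls TT-583, TT-585 and TT-587 stood far above all other mice, and the other controls lay within the HFD+mTAC range. The log2 difference in length was -0.74 (exact permutation test, two-sided, p = 0.0794, adjusted over all genes p = 0.740; the smallest p that 5 against 5 mice can give is 0.00794). Without control mouse TT-584 the exact permutation p was 0.0317, and without TT-586 it was 0.0238, with differences of -0.92 and -0.93. Leaving out any of the other 8 mice gave an exact permutation p from 0.0794 to 0.119, and without control TT-587 the difference was -0.53 (exact permutation p = 0.119). Against the median length of all genes in each mouse the difference was -0.79 (exact permutation p = 0.0476). The p-values of these alternatives were not adjusted over all genes.

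The lengths of other regulators also moved between mice. None of the 10 had an exact permutation p under 0.05, against 3.44% of all genes tested. The ratio of the longest to the shortest length over 10 mice was 3.55 for Esrra, 2.55 for Ppargc1a, 2.43 for Nrf1 and 1.25 for Ppargc1b, beside a median of 1.42 over all genes. For Ppargc1a the lengths of 7021 to 17872 bases exceeded its longest annotated transcript of 6464 bases in all 10 mice, and the same held for Esrrb in 10 mice, Esrrg in 8, Tfb2m in 6 and Esrra in 2. An effective length above the length of any annotated transcript is no physical length of a transcript, and the TPM of these genes carries it.

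**Figure D3:**
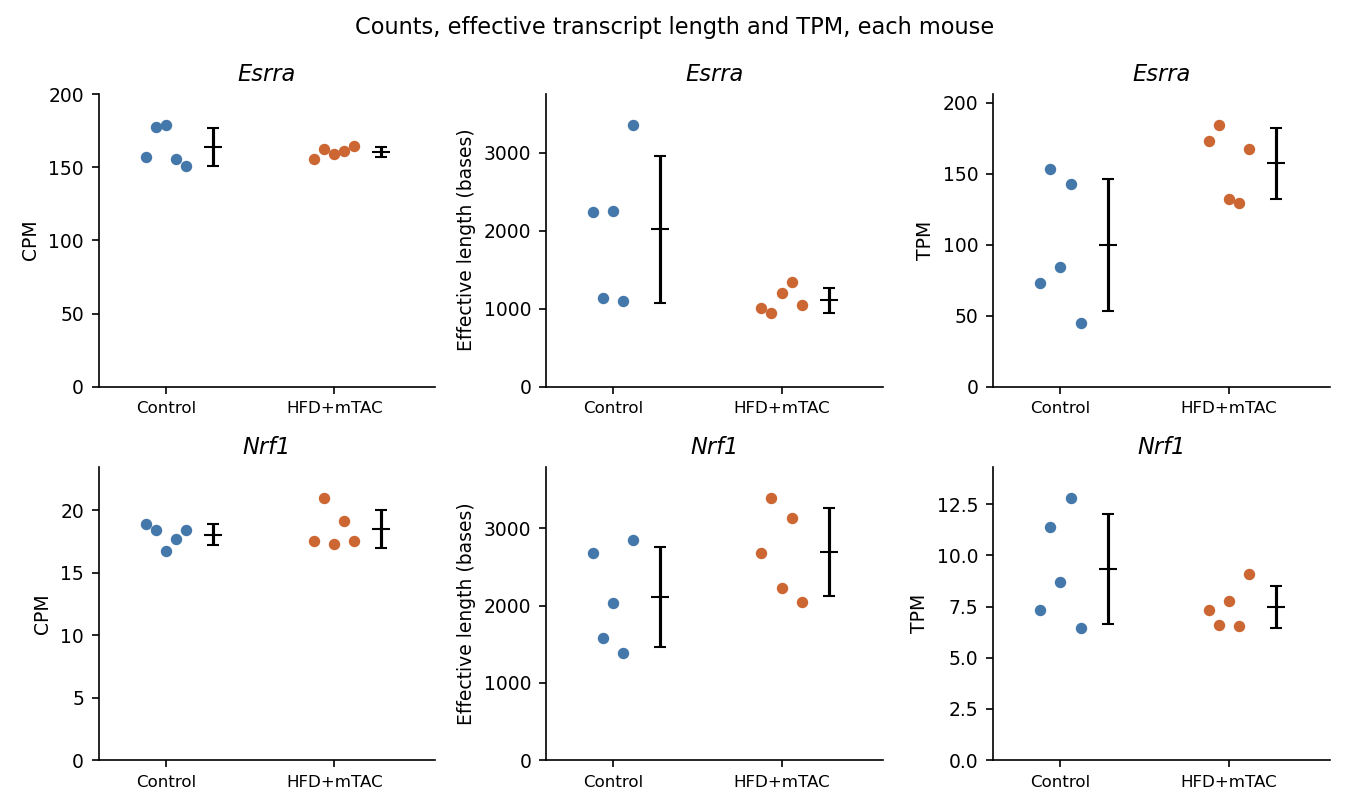
CPM, effective length in bases and TPM (y axes, from 0) of Esrra and Nrf1 in each mouse; points are mice, and black bars give the mean and SD of 5 mice per group. The counts of Esrra lie between 151 and 179 CPM in all mice, while its TPM runs from 45.1 to 184, in mirror image to its length.

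With the length as an offset in the count test, 7 regulators changed the sign of their estimate and 0 were called (0.00752% of all genes). Esrra went to 0.62 (interval -0.01 to 1.25, edgeR adjusted p = 0.675) and Esrrg to 0.36 (interval -0.38 to 1.11), while Nrf1 fell from 0.04 to -0.36 (interval -0.80 to 0.09). Gabpa, Tfam, Polrmt and Tfb2m turned from slightly below 0 to 0.14, 0.11, 0.08 and 0.05. Ppargc1a (-0.20), Ppargc1b (-0.14) and Esrrb (-0.04) kept their sign. No direction for these 7 genes holds on both scales.

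Between mice, the regulators fell into genes that varied together and genes that did not. Over the 10 mice, 45 pairs were correlated on log2 CPM: 36 were positive, the median Pearson r was 0.36, and 11 had a permutation p under 0.05 after Benjamini-Hochberg adjustment over the 45 pairs. Of these 11, 10 were the pairs among Ppargc1b, Esrrb, Esrrg, Gabpa and Tfb2m, with r from 0.783 to 0.930. The other was Ppargc1b with Tfam (r = 0.847, falling to 0.528 without the 2 farthest mice). By Spearman's rho, 9 of the 11 passed as well. Esrrb with Tfb2m and Ppargc1b with Tfam did not (rho = 0.733 and permutation p = 0.0852 after adjustment for each). The 5 genes of the 10 pairs were grouped after their correlations were seen, so the grouping itself has no test. The share of correlated pairs among all tested genes was not computed. For Esrrg, 1.64% of all tested genes had r above 0.9, with a median r of -0.05. The r of Esrrg was 0.912 with Ppargc1b, 0.930 with Esrrb, 0.924 with Gabpa and 0.930 with Tfb2m. These partners were picked for a high r over the same mice, so the share of all genes is a description and tests nothing. Esrrb and Esrrg, sister receptors, had r = 0.930 (permutation p = 0.00023, adjusted 0.00345) and Spearman's rho = 0.939 (permutation p = 0.00017), and r = 0.844 without the 2 farthest mice. Gabpa and Tfb2m had r = 0.922 and rho = 0.976 (permutation p = 4e-05 for each, adjusted 0.0018), and r = 0.928 without the 2 farthest mice.

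For the 10 pairs, which were picked for a high r over these mice, r ran from 0.493 to 0.950 in controls and from 0.899 to 0.992 in HFD+mTAC mice. TT-591, an HFD+mTAC mouse, had the lowest value of all 5 genes, and TT-588, also an HFD+mTAC mouse, was among the 2 highest for each. Without TT-587 and TT-591, r ran from 0.658 to 0.964, and 6 of 45 pairs stayed under an adjusted p of 0.05. On log2(TPM + 1) the 10 pairs had r from 0.248 to 0.822 and 0 of 45 pairs passed by the permutation test.

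Ppargc1a stood outside this group. Its r with Ppargc1b was 0.221 (permutation p = 0.534), and its highest r was with Esrra, 0.654 (permutation p = 0.0411, adjusted 0.132; rho = 0.539, permutation p = 0.113; r = 0.559 without the 2 farthest mice). Nrf1 had a negative r with 8 of the other 9 regulators, none of which passed by the permutation test after adjustment.

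**Figure D4:**
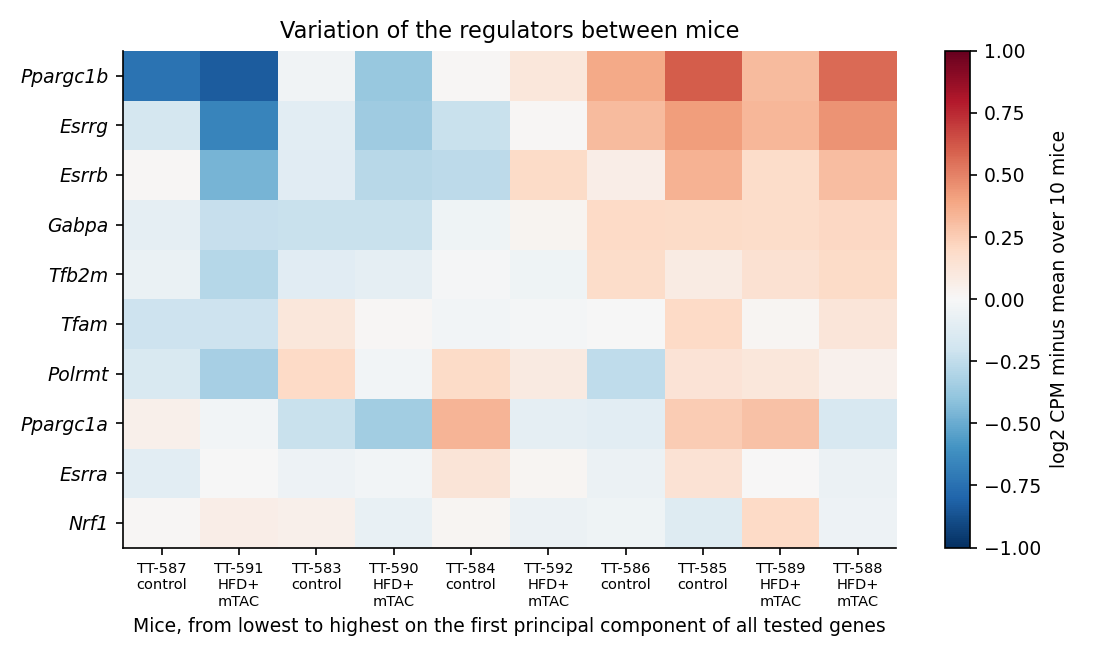
Log2 CPM of each regulator (rows) in each mouse (columns) minus the mean of that gene over 10 mice, in color; mice are ordered by their position on the first principal component of all tested genes. The upper 5 rows go mostly from blue or white at the left to red at the right with control and HFD+mTAC mice intermixed, while Ppargc1a, Esrra and Nrf1 show no such order.

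The mice varied along the same axis in many other genes. The first principal component of all tested genes held 21.6% of the variance and the groups did not differ on it beyond their spread (exact permutation test, p = 0.595). Its correlation with the regulators was 0.953 for Ppargc1b, 0.853 for Esrrg, 0.834 for Gabpa, 0.822 for Tfb2m, 0.782 for Tfam and 0.728 for Esrrb, and 0.179 for Ppargc1a. An absolute r above 0.7 was reached by 6 of the 10 regulators and by 22.1% of all tested genes.

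Endothelial, mural and fibroblast markers varied inversely with the 5 regulators that varied together. The mean log2 CPM of each of 8 marker sets was set against the component and the regulators, as a description over 10 mice with no test, since the component and the 5 regulators share their variation. The endothelial set (Pecam1, Cdh5, Kdr, Tie1, Emcn) had r = -0.875 with the component and the mural set (Acta2, Myh11, Rgs5, Pdgfrb) -0.823, followed by the fibroblast set (-0.486), the atrial set (-0.443), the macrophage set (-0.255) and the cardiomyocyte set (-0.169). With the 5 regulators that varied together, r ran from -0.948 (Gabpa) to -0.855 (Esrrb) for the endothelial set, from -0.838 to -0.553 for the fibroblast set and from -0.732 to -0.676 for the mural set, against 0.0762 to 0.234 for the cardiomyocyte set. The lymphocyte and erythroid sets had r = -0.0975 and -0.0510 with the component. Ppargc1a had r = -0.340 and Esrra -0.239 with the endothelial set. With the fibroblast set their r was -0.608 and -0.246. Both had their strongest r with the lymphocyte set, -0.793 and -0.890. That set held 2 tested markers, at -0.909 to 0.742 log2 CPM in controls and -0.190 to 0.394 in HFD+mTAC mice. The endothelial set ran from 7.89 to 8.28 log2 CPM in controls and from 7.90 to 8.41 in HFD+mTAC mice. It did not differ beyond its spread (exact permutation test, p = 0.944). Whether cell makeup plays a part in the covariation was not tested.

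The genes around the regulators were taken from 3 lists, which were chosen with earlier results of these data known. Of 26 PGC-1 partners and upstream regulators, 16 had estimates above 0 and 10 below, with a median log2 fold change of 0.03. By edgeR 0 were called, against 0.0602% of all genes tested, and 0 had an unadjusted p under 0.05, against 8.26%. The 2 smallest p-values in each direction belonged to Prkag1, a subunit of the energy sensor AMPK (-0.17, SE 0.08, adjusted p = 0.620), the transcription factors Mef2c (-0.14) and Mef2d (0.19), which act on the Ppargc1a promoter, and Hcfc1 (0.18), a cofactor bound by PGC-1 proteins. DESeq2 and limma called 0 of the list as well.

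Of 24 genes of mtDNA maintenance and transcription, 21 were tested, with 9 estimates above 0, 12 below and a median of -0.04. Again 0 were called, against 0.0602% of all genes tested, and 0 had an unadjusted p under 0.05, against 8.26%. Named by the same rule, Ssbp1, which coats single-stranded mtDNA, had -0.16 (SE 0.08, adjusted p = 0.647) and Slirp, which stabilizes mitochondrial mRNA, -0.26, while the nucleases Mgme1 and Rnaseh1 had 0.30 and 0.17.

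Of 28 targets of PGC-1 and ERR, 27 were tested, with 9 above 0, 18 below and a median of -0.04. By edgeR 0 were called, but 6 had an unadjusted p under 0.05, 4 of them with higher values, beside the 8.26% of all genes. Ucp3, an inner-membrane carrier of muscle that rises with fatty acid supply, was at 32.8, 40.7, 45.1, 43.2 and 35.2 CPM in controls and at 87.3, 88.6, 80.1, 36.7 and 71.8 CPM in HFD+mTAC mice. In HFD+mTAC hearts, 4 of 5 values lay above all controls, and TT-591 lay among the controls. The log2 fold change was 0.89 (SE 0.20, edgeR adjusted p = 0.199); without TT-591 it was 1.06 (adjusted p = 0.00491), without both TT-587 and TT-591 1.02 (adjusted p = 0.0203), and DESeq2 on all mice called it with 0.88 (adjusted p = 0.00764). With the length offset it was 0.90 (adjusted p = 0.634).

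Fabp3, the fatty acid carrier of heart muscle, ran from 4310 to 5956 CPM in controls and from 6165 to 6703 CPM in HFD+mTAC mice. The log2 fold change was 0.28 (SE 0.10, edgeR adjusted p = 0.443). The groups did not overlap for 1 of the 27 targets tested, Fabp3, against 1.96% of all genes. With the length offset its log2 fold change was 0.18 (interval -0.16 to 0.52, edgeR adjusted p = 0.820). Cycs, which encodes cytochrome c, had a log2 fold change of -0.23 (SE 0.09, adjusted p = 0.530), and Slc25a4, the ADP/ATP carrier, also had -0.23 (SE 0.10, adjusted p = 0.545). Ucp3 and Fabp3 thus had higher estimates and Cycs and Slc25a4 lower ones, none past the threshold by edgeR.

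The transcripts that TFAM, POLRMT and TFB2M make were read in a fit that kept mitochondrial genes. Of the 13 mRNAs encoded by mtDNA, 10 had estimates above 0 and 3 below, with a median of 0.10. By edgeR 0 were called and 0 had an unadjusted p under 0.05. In the main fit, without mitochondrial genes, the shares of all genes were 0.0602% and 8.26%. The lowest estimate of the 13 was that of mt-Nd3 (-0.46, SE 0.38) and the highest that of mt-Nd6 (0.23, SE 0.22), both subunits of complex I. These had the lowest control means of the 13, 307 and 463 CPM, beside 127318 CPM for mt-Co1. The libraries were made from polyadenylated RNA, and how fully each mRNA was captured was not tested. Together the 13 mRNAs took 43.8%, 44.0%, 50.9%, 49.5% and 50.6% of all counts in controls and 49.9%, 52.7%, 49.9%, 51.6% and 46.4% in HFD+mTAC mice. The 2 lowest shares were those of controls TT-583 and TT-584, and the other mice overlapped. The mean shares were 47.8% ± 3.57 and 50.1% ± 2.37 (SD, n = 5 each; exact permutation test, two-sided, p = 0.246), and of TPM 61.7% ± 2.94 and 62.5% ± 2.94 (exact permutation p = 0.675).

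**Figure D5:**
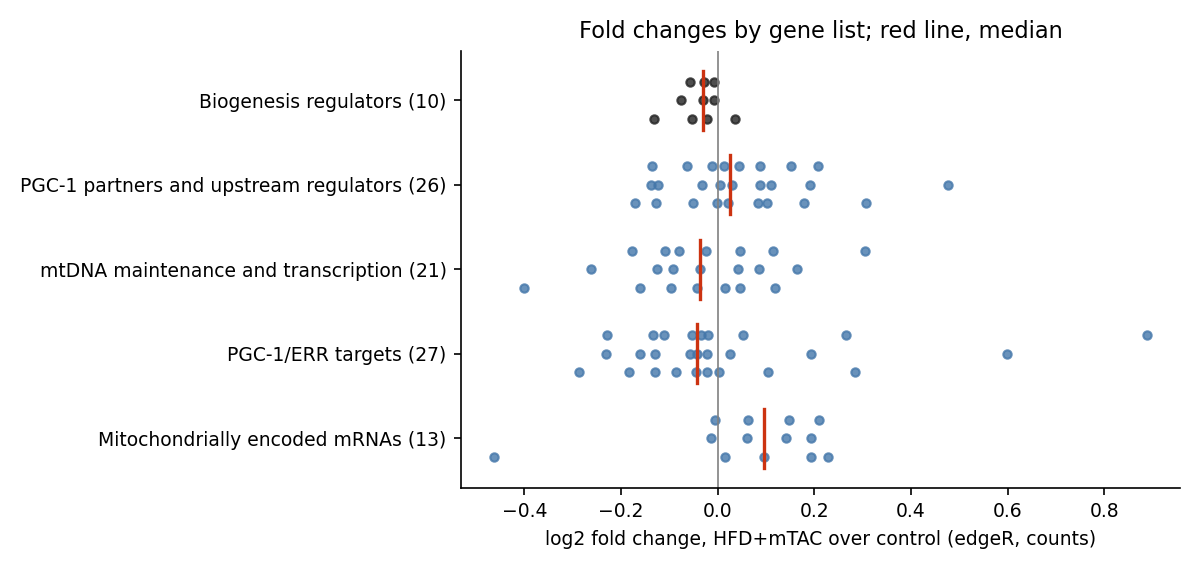
Log2 fold changes, HFD+mTAC over control (x axis), of the 10 regulators, the 3 lists and the 13 mRNAs of mtDNA; each point is a gene and the red line the median, with the number of genes in brackets. The points of the regulators span the narrowest range, from -0.13 to 0.04, and the point farthest to the right is Ucp3 at 0.89.

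The genes whose counts followed Ppargc1a most closely over the 10 mice were Tppp (r = 0.898), Tars2 (r = 0.871) and Pvrl2 (r = 0.853). For Esrra they were Car11 (r = 0.935, at 1.40 CPM), Mcu, the pore of the mitochondrial calcium uniporter (r = 0.919), and Cacfd1 (r = 0.876). These are the highest of 13298 values for each gene and are given as a description. Relations of the 10 regulators with the total count, the mitochondrial share and the median length of each library were also computed, and 0 of these 30 had an adjusted permutation p under 0.05.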

How the data were processed

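Polyadenylated RNA of left ventricle from 5 control and 5 HFD+mTAC mice was sequenced from stranded libraries, and groups were taken from the sample titles. According to the study, the authors trimmed reads with fastp and quantified them with Salmon 1.6.0 (also named in the submitters' processing notes) on GENCODE transcripts of GRCm38.p6, with sequence, GC and position bias corrections, and summed them per gene with tximport. The labels name a human build, whereas the gene identifiers are of mouse; they also give single-end reads, whereas the study gives paired-end reads. The authors deposited estimated counts per gene, without normalization, of which 20.1% hold decimals. A second deposited table holds TPM, in which counts are divided by effective length and scaled to one total per mouse, and a table of these effective lengths in bases.

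Counts were rounded. Protein-coding, nuclear genes with at least 1 count in 9 of 10 mice were kept (13298 genes), and TPM was rescaled over them. edgeR 4.0.16 (TMM, quasi-likelihood, R 4.3.3) compared the groups with no covariate; DESeq2 1.42.0 and limma 3.58.1 (log2 with a pseudocount of 1 or 0.1) were alternatives, with other normalizations, filters, a length offset and each mouse left out. Code was tested on simulated counts. Lengths and shares were compared by exact permutation (252 arrangements), and correlations by 100000 permutations, or all arrangements below 10 mice. CPM are TMM-scaled. A call is an adjusted p under 0.05. The named genes were the 10 regulators, the 2 smallest p-values in each direction per list, the extremes of the 13 mitochondrial mRNAs and the 3 genes most like Ppargc1a and Esrra. The regulators and lists were chosen with earlier results of these data known. Total counts were 34.2 to 53.7 M per mouse, and 12.7 to 21.1 M on the genes kept. No 2 libraries agreed within counting noise. Nothing in the labels names a batch. Loci are from GENCODE M21 and start windows from RefSeq, both on GRCm38.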

Additional observations from a re-analysis of the deposited data

Results flagged for a closer look

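In Esrrb, the TPM of control mouse TT-585 was 5.60, away from the other 4 controls, of which the nearest was at 4.27; the gap was 0.746 of the range of the group, above the critical value of 0.71 for 5 mice. This was 1 of 62 groups examined, and chance gives about 1 in 20.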

How the results depend on the processing

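In every setting run, 0 of the 10 regulators were called. Of 210 values of the regulators under alternatives, 48 had the opposite sign, and the smallest adjusted p in any fit over all genes was 0.667. With the length offset, limma on log2(TPM + 1) and limma on log2(TPM + 0.1), in this order, the sign turned for Esrra (0.62, 0.77, 0.78), Esrrg (0.36, 0.22, 0.23), Nrf1 (-0.36, -0.26, -0.28), Gabpa (0.136, 0.0885, 0.0886), Tfam (0.11, 0.13, 0.13), Polrmt (0.0829, 0.0730, 0.0742) and Tfb2m (0.0508, 0.0931, 0.0949); the length table enters these fits by construction. Leaving out both TT-587 and TT-591 turned Esrrb (0.0856), Esrrg (0.0147), Gabpa (0.0175) and Tfb2m (0.0148). Leaving out 1 mouse gave log2 fold changes from -0.237 to -0.0570 for Ppargc1a, -0.247 to 0.0816 for Ppargc1b, -0.0571 to 0.00509 for Esrra, -0.0928 to 0.0912 for Esrrb, -0.191 to 0.0704 for Esrrg, -0.0188 to 0.0579 for Nrf1, -0.0667 to 0.0445 for Gabpa, -0.0822 to 0.0186 for Tfam, -0.118 to 0.0141 for Polrmt and -0.0785 to 0.0377 for Tfb2m. It gave length differences from -0.12 to 0.22 for Ppargc1a, -0.16 to 0.11 for Gabpa, -0.254 to 0.00994 for Tfam, -0.19 to 0.11 for Polrmt, -0.179 to 0.0447 for Tfb2m and -0.93 to -0.53 for Esrra.

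Over all genes, 8 were called by edgeR, 120 by DESeq2 and 1 each with the length offset and by limma at either pseudocount; leaving out 1 mouse gave 1 to 9 and leaving out both TT-587 and TT-591 gave 2, and the cause was not tested. The targets of PGC-1 and ERR had 1 call by DESeq2, 1 without both TT-587 and TT-591, and 0 to 1 when 1 mouse was left out (Ucp3 each time, the last without TT-591). Regulators with a length difference numbered 0, but 1 (Esrra) relative to the median of all genes and 0 to 1 when 1 mouse was left out. These counts rest on unadjusted exact permutation p-values. In the main setting 3.44% of all genes passed, and the share in the other settings was not computed. The passes with 1 mouse left out dropped TT-584 or TT-586, the controls with the shortest Esrra lengths (1133 and 1097 bases). Pairs past the adjusted threshold numbered 11 on counts, 0 on log2(TPM + 1), 6 without TT-587 and TT-591 and 11 on deviations from group means, settings added after the data were seen; the last could hardly move r, since the group differences of these genes were near 0. No paired analysis was possible because the groups share no replicate numbers. The order of the levels under another length, also added, is given above. The group size of 5 mice leaves the intervals given above.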

Other observations

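Idh3a, a subunit of the citric acid cycle enzyme isocitrate dehydrogenase and one of the targets of PGC-1 and ERR, failed the filter because it was listed at 0 in 8 of 10 mice, with 1346 estimated counts in control mouse TT-587 and 5186 in HFD+mTAC mouse TT-591, the same mice that lay lowest on the first principal component. Tk2, the thymidine kinase of mitochondria, was listed at 0 in those 2 mice and at 28.5 to 253 estimated counts in the others. These genes were given no fold change.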
